A study of Mus musculus with 72 samples.

Results

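The liver breaks down amino acids through a set of enzymes whose genes were followed here over the day in 2 liver-specific sirtuin knockouts. The set holds 37 genes chosen by symbol for their role in amino acid breakdown and the urea cycle. For 34 of them a probe set was annotated with that symbol alone, and all 34 were bright enough to be tested, among 13308 genes tested in all. Sds, Sdsl and Gls2, which act on serine, threonine and glutamine, had no such probe set in the annotation used and were not analysed here.

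Breakdown of amino acids removes the amino group, usually by transamination onto glutamate, and leaves a carbon skeleton for energy, glucose or fat. Glutamate dehydrogenase releases the nitrogen as ammonia, and the urea cycle of periportal hepatocytes turns ammonia and aspartate into urea. Liver is the main site of both, and many of these enzymes follow feeding, glucagon and glucocorticoids, which themselves vary over the day. Both targeted genes encode sirtuins, enzymes that use NAD to remove acyl groups from proteins.

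The 72 samples were livers of mice kept under 12 h of light and 12 h of dark and harvested every 4 h, at zeitgeber time (ZT, hours after lights on) 0, 4, 8, 12, 16 and 20. The groups were livers labelled SIRT6 liver-specific knockout (KO) and their wild type (WT) on a background labelled "129 mixed", and livers labelled SIRT1 liver-specific KO and their WT on C57BL/6, with 3 arrays for each genotype, cohort and time. Strain and targeted gene therefore cannot be told apart in any contrast between the cohorts. The labels state neither age, the Cre driver nor the deleted exons. They also do not say that replicates were separate mice, so p-values reflect only how far these samples scatter, which may be technical.

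Each sample was 1 array, with a median intensity over probe sets of 43.9 to 53.8. Levels below are log2(intensity + 16), and a level of one gene is never set against that of another. Precision is limited by how many arrays there are. The Sirt6 probe set was brighter, not dimmer, in arrays labelled SIRT6 KO: its level was 7.76 at the lowest, 7.85 at the median and 8.07 at the highest array labelled SIRT6 KO, against 7.01, 7.31 and 7.60 in WT (difference 0.57, limma adjusted p = 8.89e-09). The Sirt1 probe set did not differ detectably between arrays labelled SIRT1 KO and WT (difference 0.00, adjusted p = 0.961). Probe positions and deleted exons are not given, so a probe set outside the deleted part would check nothing, and KO below always means the label. The clock genes Arntl and Dbp peaked at like times in SIRT6 KO, its WT, SIRT1 KO and its WT, with Arntl at ZT21.2, ZT21.2, ZT21.5 and ZT22.0, and Dbp at ZT8.6, ZT8.3, ZT9.5 and ZT10.2. The lowest correlation between replicates was 0.904, for 2 arrays of SIRT6-cohort WT at ZT12.

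Averaged over the 6 times, 2 of the 34 genes were lower in arrays labelled SIRT6 KO than in their WT and 0 were higher, where 3.22% of all genes tested were lower and 3.39% higher (limma, Benjamini-Hochberg adjusted p under 0.05). The 2 were Hgd, homogentisate dioxygenase of tyrosine breakdown, and Cdo1, cysteine dioxygenase, which commits cysteine to taurine or sulfate. At an unadjusted p under 0.05, 5 of the 34 were lower and 2 (Got2 and Prodh) higher, 7 of 34 in all, against 2567 of the 13308 genes tested. The 34 genes had the lower mean in KO in 24 cases, 70.6%, against 48.3% of all genes tested, and their median difference was -0.05, against 0.00 over all genes. The number of cases was 18 without replicate 2 of WT at ZT8 and 26 without replicate 2 of KO at ZT20. The share over all genes was not computed with arrays left out. In bulk liver, fewer cells of a type and less RNA per cell cannot be told apart.

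By pathway, all 6 urea cycle genes, all 4 genes of tyrosine and tryptophan breakdown and all 8 of methionine and cysteine metabolism had the lower mean in SIRT6 KO, 18 genes in all, with group medians of -0.06, -0.06 and -0.08. This count was 14 without replicate 2 of WT at ZT8, 17 with array weights and 16 with the upper quartile of each array as a covariate. Of the 6 transamination and glutamate genes 2 had the lower mean, and so had 2 of 5 in histidine, proline and ornithine breakdown and 2 of 5 in lysine, branched-chain and pyrimidine breakdown. The 18 genes were put together because their pathways showed the same direction in these same arrays, so their count is a description only. The direction of a mean carries no test here, and 16 of the 18 did not pass the threshold. Of the 18, only Hgd and Cdo1 had the lower mean at all 6 times. Others changed sign over the day, such as Ass1 (-0.71 at ZT0 and 0.25 at ZT16) and Asl (-0.31 and 0.15). Some genes of the other pathways did so too, such as Got1 (-0.52 and 0.22) and Bckdha (-0.28 and 0.27), while Prodh was higher at both times (0.04 and 0.38). None of these passed at a single time.

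**Figure D1:**
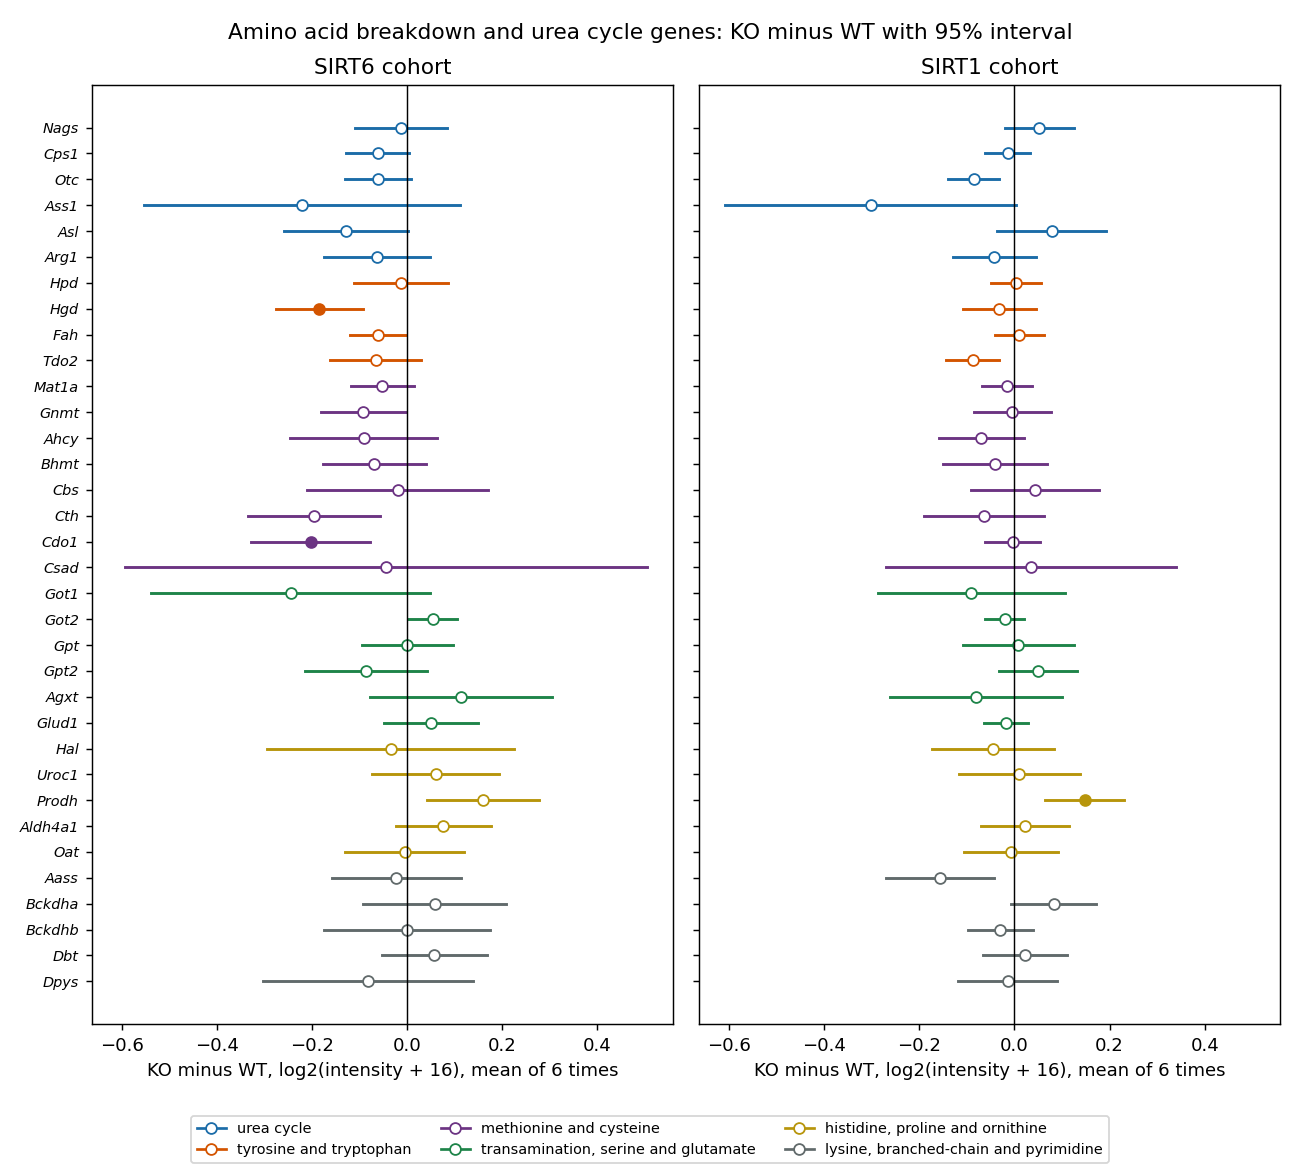
Difference KO minus WT for each of the 34 genes, averaged over 6 times, on the log2(intensity + 16) scale (horizontal axis), with its 95% interval, in the SIRT6 cohort (left) and the SIRT1 cohort (right). Colours mark pathways and filled points an adjusted p under 0.05. Hgd (-0.18) and Cdo1 (-0.20) are filled on the left and Prodh (0.15) on the right, where Ass1 and Csad have the widest intervals.

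Hgd opens the ring of homogentisate, the step that is lost in alkaptonuria in humans. At ZT0 its level was 12.08, 12.11 and 11.95 in SIRT6 KO, against 12.32, 12.44 and 12.20 in WT. At ZT4 it was 12.03, 12.12 and 12.03 in KO and 12.47, 12.30 and 12.19 in WT. The groups did not overlap at these 2 times, in which all KO arrays lay below all WT arrays. At ZT8 the level was 12.03, 11.83 and 11.60 in KO, against 12.05, 12.37 and 11.97 in WT, and at ZT12 it was 11.64, 12.07 and 11.94 in KO, against 11.89, 12.12 and 12.12 in WT. At ZT16 it was 12.00, 12.10 and 12.08 in KO and 12.13, 12.06 and 12.10 in WT, and at ZT20 it was 12.30, 12.19 and 12.09 in KO and 12.30, 12.26 and 12.24 in WT. The groups overlapped from ZT8 on, and the means lay close together at ZT16 and ZT20. Hgd averaged 12.01 ± 0.17 in KO and 12.20 ± 0.16 in WT (SD over times, n = 18 each), and the difference was -0.18 ± 0.04 (SE; 0.880-fold; adjusted p = 0.00978). Its mean was lower in KO at 6 of 6 times, and 15 of 18 KO arrays lay below the WT mean of their time. The call held in all 9 alternative settings and without each of the 36 arrays, with an adjusted p between 0.00357 and 0.0188.

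Cdo1 averaged 12.04 ± 0.23 in SIRT6 KO and 12.24 ± 0.16 in WT (SD over times, n = 18 each), a difference of -0.20 ± 0.06 (SE; 0.869-fold; adjusted p = 0.0420). At ZT0 its level was 12.04, 11.93 and 12.36 in KO, against 12.43, 12.21 and 12.37 in WT, and at ZT4 it was 12.25, 12.22 and 12.15 in KO, against 12.19, 12.32 and 12.60 in WT. KO and WT overlapped at both times. At ZT8 it was 12.00, 12.42 and 12.10 in KO and 12.39, 12.10 and 12.43 in WT, and at ZT12 it was 12.17, 11.80 and 11.82 in KO and 12.22, 12.17 and 12.10 in WT. At ZT16 it was 12.39, 11.73 and 11.81 in KO and 12.24, 12.25 and 11.93 in WT, and at ZT20 it was 11.79, 11.97 and 11.78 in KO, against 12.08, 12.29 and 12.08 in WT. Only at ZT20 did all KO arrays lie below all WT arrays, while at ZT16 1 KO array lay above all 3 WT arrays. The mean was lower in KO at 6 of 6 times. The call was lost without any 1 of 23 of the 36 arrays (adjusted p up to 0.0748), with no filter on low values and with a block for the replicate number.

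The promoter of Hgd is shown because Hgd, of the 3 genes called on average, kept its call in every setting run. The interval runs from 250 bases before to 50 after the annotated start, on the + strand at chr16:37579903-37580202 (RefSeq, GRCm38.p6), and capitals mark matches to TTGCNNAA on either strand, a C/EBP-like motif, at -49 and 15 from the start.
Hgd: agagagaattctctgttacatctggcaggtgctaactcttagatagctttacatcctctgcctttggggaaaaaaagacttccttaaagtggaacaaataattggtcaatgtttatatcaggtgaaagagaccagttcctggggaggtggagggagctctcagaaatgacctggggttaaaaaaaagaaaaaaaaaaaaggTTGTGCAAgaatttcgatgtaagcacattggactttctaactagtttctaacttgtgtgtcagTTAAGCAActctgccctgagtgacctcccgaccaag
This motif was held by 10.8% of the 32851 promoters of the table and by 3 of the 27 promoters found for 25 of the 37 genes (those of Aass, Hal and Hgd). A match is a description of letters and no evidence of binding.

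The other members of the sulfur, urea and tyrosine pathways did not pass in SIRT6 KO. The nearest to the threshold was Cth, cystathionine gamma-lyase, which makes cysteine, with a difference of -0.20 (adjusted p = 0.0837) and a mean of 12.13 ± 0.32 in KO and 12.33 ± 0.23 in WT. All 3 KO arrays of Cth lay below all 3 WT arrays at 3 of the 6 times. Asl, argininosuccinate lyase, differed by -0.13 (adjusted p = 0.268), again with no overlap, KO below WT, at 3 times. Gnmt, which methylates glycine and disposes of S-adenosylmethionine, differed by -0.09 (adjusted p = 0.242), and Fah, the last enzyme of tyrosine breakdown, by -0.06 (adjusted p = 0.223). Cps1 and Otc, the mitochondrial steps of the urea cycle, differed by -0.06 each (adjusted p = 0.295 and 0.330). Ass1, which joins citrulline to aspartate, differed by -0.22 with a 95% interval of -0.55 to 0.11, and Arg1, which releases urea, by -0.06 (adjusted p = 0.611). Nags, which makes the activator of Cps1, differed by -0.01 (adjusted p = 0.941).

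In the rest of tyrosine, tryptophan and methionine metabolism the differences in SIRT6 KO were small. Hpd, which makes homogentisate, differed by -0.01 and Tdo2, the first step of tryptophan breakdown, by -0.07. Mat1a, which makes S-adenosylmethionine, differed by -0.05, Ahcy, which splits S-adenosylhomocysteine, by -0.09, and Bhmt, which remethylates homocysteine with betaine, by -0.07. Cbs, which draws homocysteine into cysteine synthesis, differed by -0.02, and Csad, which leads to taurine, by -0.04 with an interval of -0.59 to 0.50. A second probe set of Ahcy differed by -0.15 in SIRT6 KO. In SIRT1 KO it gave 0.03 where the one used gave -0.07, so the 2 disagree in sign there.

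The remaining pathways held genes with the higher mean as well. Got1, cytosolic aspartate aminotransferase, differed by -0.24 in SIRT6 KO (interval -0.54 to 0.05) and Gpt2, mitochondrial alanine aminotransferase, by -0.09. Got2, the mitochondrial aspartate enzyme, had a mean of 12.64 ± 0.06 in KO and 12.58 ± 0.07 in WT, a difference of 0.05 (adjusted p = 0.228) with 15 of 18 KO arrays above the WT mean of their time. Agxt, which detoxifies glyoxylate, differed by 0.11, Glud1, glutamate dehydrogenase, by 0.05 and Gpt, cytosolic alanine aminotransferase, by 0.00. Hal and Uroc1, the first steps of histidine breakdown, differed by -0.03 and 0.06, Aldh4a1, which completes proline breakdown, by 0.08 and Oat, ornithine aminotransferase, by -0.01. Aass, which opens lysine breakdown, differed by -0.02, and Dpys, of pyrimidine breakdown, by -0.08. Bckdha, Bckdhb and Dbt, subunits of the branched-chain ketoacid dehydrogenase, differed by 0.06, 0.00 and 0.06. None of these passed the threshold, and the smallest adjusted p in the lysine, branched-chain and pyrimidine group was 0.649. For 27 of the 34 genes the 95% interval of the difference lay within 0.3 of 0 on the log2 scale, and the exceptions were Ass1, Cth, Cdo1, Csad, Got1, Agxt and Dpys.

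In the SIRT1 cohort 1 of the 34 genes was higher in KO, Prodh, and 0 were lower, where 1.06% of all genes tested were higher and 1.21% lower. At an unadjusted p under 0.05, 3 genes were lower (Otc, Tdo2 and Aass) and 1 higher (Prodh), 4 of 34 in all, against 2399 of the 13308 genes tested. The lower mean was found in KO for 21 of 34 genes, 61.8%, against 50.9% of all genes, but for 17 with quantile normalization and 8 with array medians centred, so that this split depends on the scaling. The median difference was -0.01. For 32 of the 34 genes the 95% interval lay within 0.3 of 0, and the exceptions were Ass1 (-0.61 to 0.00) and Csad (-0.27 to 0.34).

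Prodh, proline dehydrogenase, starts the breakdown of proline in mitochondria. At ZT0 its level was 10.49, 10.57 and 10.70 in SIRT1 KO, against 10.50, 10.42 and 10.41 in WT, and at ZT4 it was 10.72, 10.68 and 10.36 in KO, against 10.30, 10.43 and 10.17 in WT. At ZT8 it was 10.49, 10.64 and 10.68 in KO and 10.21, 10.34 and 10.41 in WT, the 1 time at which the groups did not overlap. At ZT12 it was 10.69, 10.94 and 10.82 in KO and 10.62, 10.72 and 10.80 in WT, and at ZT16 it was 10.81, 10.72 and 10.72 in KO and 10.75, 10.42 and 10.73 in WT. At ZT20 it was 10.31, 10.29 and 10.59 in KO, against 10.38, 10.43 and 10.52 in WT, and here alone the KO mean was the lower one. Prodh averaged 10.62 ± 0.18 in KO and 10.47 ± 0.18 in WT (SD over times, n = 18 each), a difference of 0.15 ± 0.04 (SE; 1.11-fold; adjusted p = 0.0472), with 15 of 18 KO arrays above the WT mean of their time. The call was lost without any 1 of 24 of the 36 arrays (adjusted p up to 0.0886), with quantile normalization, no filter, no trend and a block for the replicate number.

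In the SIRT6 cohort the difference in Prodh was of like size, 0.16 ± 0.06, and missed the threshold (adjusted p = 0.0970). Its level was 10.28 at the lowest, 10.47 at the median and 10.80 at the highest of 18 SIRT6 KO arrays, against 10.06, 10.29 and 10.78 in WT, and 16 of 18 KO arrays lay above the WT mean of their time. At ZT16 and ZT20 all 3 SIRT6 KO arrays lay above all 3 WT arrays. With array weights and with the upper quartile as a covariate it passed (adjusted p = 0.0158 and 0.00294). The 2 cohorts' differences rest on separate arrays. The Prodh promoter is shown because Prodh was the 1 gene of the set called in the SIRT1 cohort. It lies on the - strand at chr16:18089141-18089440 (RefSeq, GRCm38.p6), and none of the motifs searched was found in it.
Prodh: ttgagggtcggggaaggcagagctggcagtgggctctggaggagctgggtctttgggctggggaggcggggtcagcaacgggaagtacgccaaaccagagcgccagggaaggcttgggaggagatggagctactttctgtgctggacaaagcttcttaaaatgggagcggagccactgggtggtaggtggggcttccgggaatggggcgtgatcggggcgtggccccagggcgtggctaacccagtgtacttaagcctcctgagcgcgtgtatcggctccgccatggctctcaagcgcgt

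**Figure D2:**
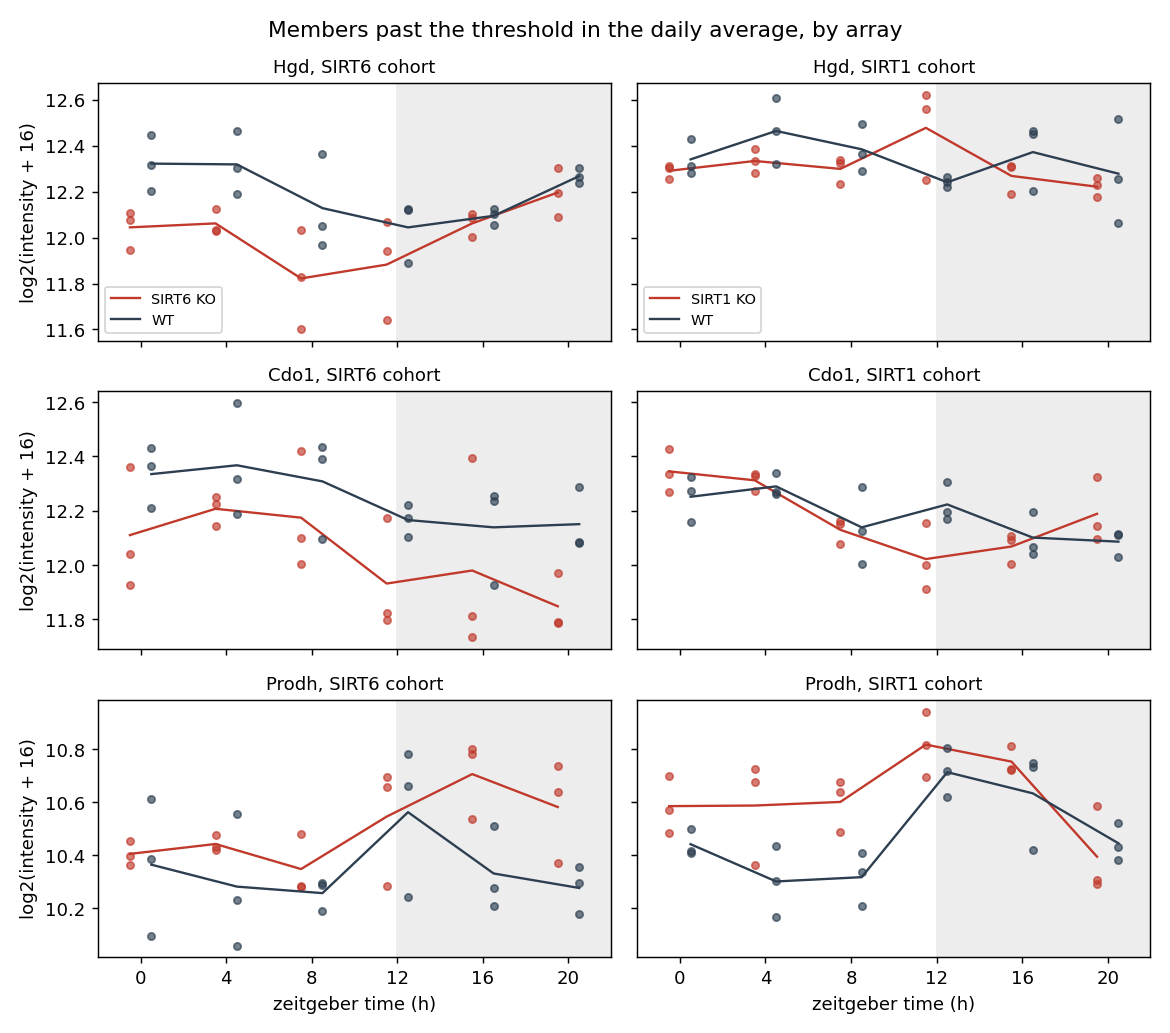
Level of Hgd, Cdo1 and Prodh on each array, log2(intensity + 16), against zeitgeber time in hours, with KO in red, drawn left of WT in dark blue, in the SIRT6 cohort (left) and the SIRT1 cohort (right). Lines join group means of 3 arrays and grey marks the dark phase. Hgd in SIRT6 KO lies below WT without overlap at ZT0 and ZT4, and Prodh in SIRT1 KO lies above WT without overlap at ZT8.

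Among the other genes in the SIRT1 cohort, Otc had a mean of 12.00 ± 0.08 in KO and 12.08 ± 0.08 in WT, a difference of -0.09 (adjusted p = 0.0717), with the lower mean in KO at 6 of 6 times. Tdo2 differed by -0.09 (adjusted p = 0.0773) and Aass by -0.16 (adjusted p = 0.125), with 16 of 18 KO arrays of Aass below the WT mean of their time. Hgd and Cdo1 differed by -0.03 and 0.00 in SIRT1 KO (adjusted p = 0.684 and 0.954). The Hgd level was 12.18 at the lowest, 12.31 at the median and 12.62 at the highest SIRT1 KO array, against 12.07, 12.32 and 12.61 in WT. Medians of the pathway groups lay between -0.03 for the urea cycle and 0.01 for histidine, proline and ornithine breakdown.

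No gene of the set was shown to differ between the 2 knockouts. The difference between the SIRT6 and SIRT1 effects, each KO against its own WT, passed for 0 of 34 genes, where 5.76% of all genes tested passed. Of the 34, 4 had an unadjusted p under 0.05 (Asl, Hgd, Cdo1 and Got2), a cut at which the share over all genes was not computed. The smallest adjusted p was that of Cdo1 (SIRT6 effect minus SIRT1 effect -0.20 ± 0.07, adjusted p = 0.0707), followed by Hgd (-0.15 ± 0.06, adjusted p = 0.116). The call of Hgd in the SIRT6 cohort alone therefore does not set the cohorts apart.

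At single times 0 of the 34 genes passed in either cohort, where 0.473% of all genes passed at 1 or more times under the SIRT6 label and 0 under SIRT1. Of 204 pairs of gene and time, 14 had an unadjusted p under 0.05 among SIRT6 arrays and 22 among SIRT1 arrays. The share over all genes at this cut was not computed, so these counts cannot be read as more or fewer than usual. The smallest adjusted p in the SIRT6 cohort was that of Hgd at ZT8 (-0.31, adjusted p = 0.403). In the SIRT1 cohort it was that of Uroc1, urocanase, at ZT12 (0.56, adjusted p = 0.318), where Cbs (0.53, adjusted p = 0.382) and Asl (0.40, adjusted p = 0.457) also had higher means in KO. The unadjusted limma p of these 3 was 0.000919 (Uroc1), 0.00284 (Cbs) and 0.00658 (Asl), and they did not pass the correction over all genes and times.

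A 24 h cosine passed for 5 of 34 genes in SIRT6 KO (10.6% of all genes), 7 in SIRT6-cohort WT (10.1%), 14 in SIRT1 KO (23.2%) and 6 in SIRT1-cohort WT (18.3%). These counts are 14.7%, 20.6%, 41.2% and 17.6% of the 34 genes, where the share in SIRT1-cohort WT lay near and slightly below that of all genes. By an F test over the 6 times 1 of the 34 passed in SIRT6 KO and 1 in SIRT6-cohort WT. More genes passed it in the SIRT1 sets, among them Asl in SIRT1 KO (adjusted p = 0.000864) and Nags in its WT (adjusted p = 0.00983). The share of all genes passing this F test was not computed, so its counts cannot be read as more or fewer than usual. Amplitudes, given as fitted peak minus trough in log2, had medians over all 34 genes of 0.30, 0.30, 0.27 and 0.20 in that order of sets, against 0.20, 0.23, 0.22 and 0.21 over all genes tested. The number of rhythmic genes in SIRT6-cohort WT was 2 without replicate 1 at ZT12. A difference in rhythm between KO and WT passed for 0 of 34 genes in both cohorts, where 0.00751% of all genes (SIRT6 cohort) and 0 (SIRT1 cohort) passed. At an unadjusted p under 0.05 it was 5 genes under the SIRT6 label (Asl, Arg1, Cth, Got1 and Gpt2) and 1 under SIRT1 (Cdo1). The share over all genes at that cut was not computed. The 14 rhythmic genes in SIRT1 KO and 6 in its WT are thus not shown to differ in rhythm.

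Between KO and WT the fitted peak lay within 4 h for 23 of 34 genes (SIRT6 cohort) and for 27 (SIRT1 cohort). Between the SIRT6 and the SIRT1 cohort it did so for 13 genes among KO sets and 15 among WT sets. These counts include genes with no called rhythm, whose peak is poorly placed, and they carry no test.

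**Figure D3:**
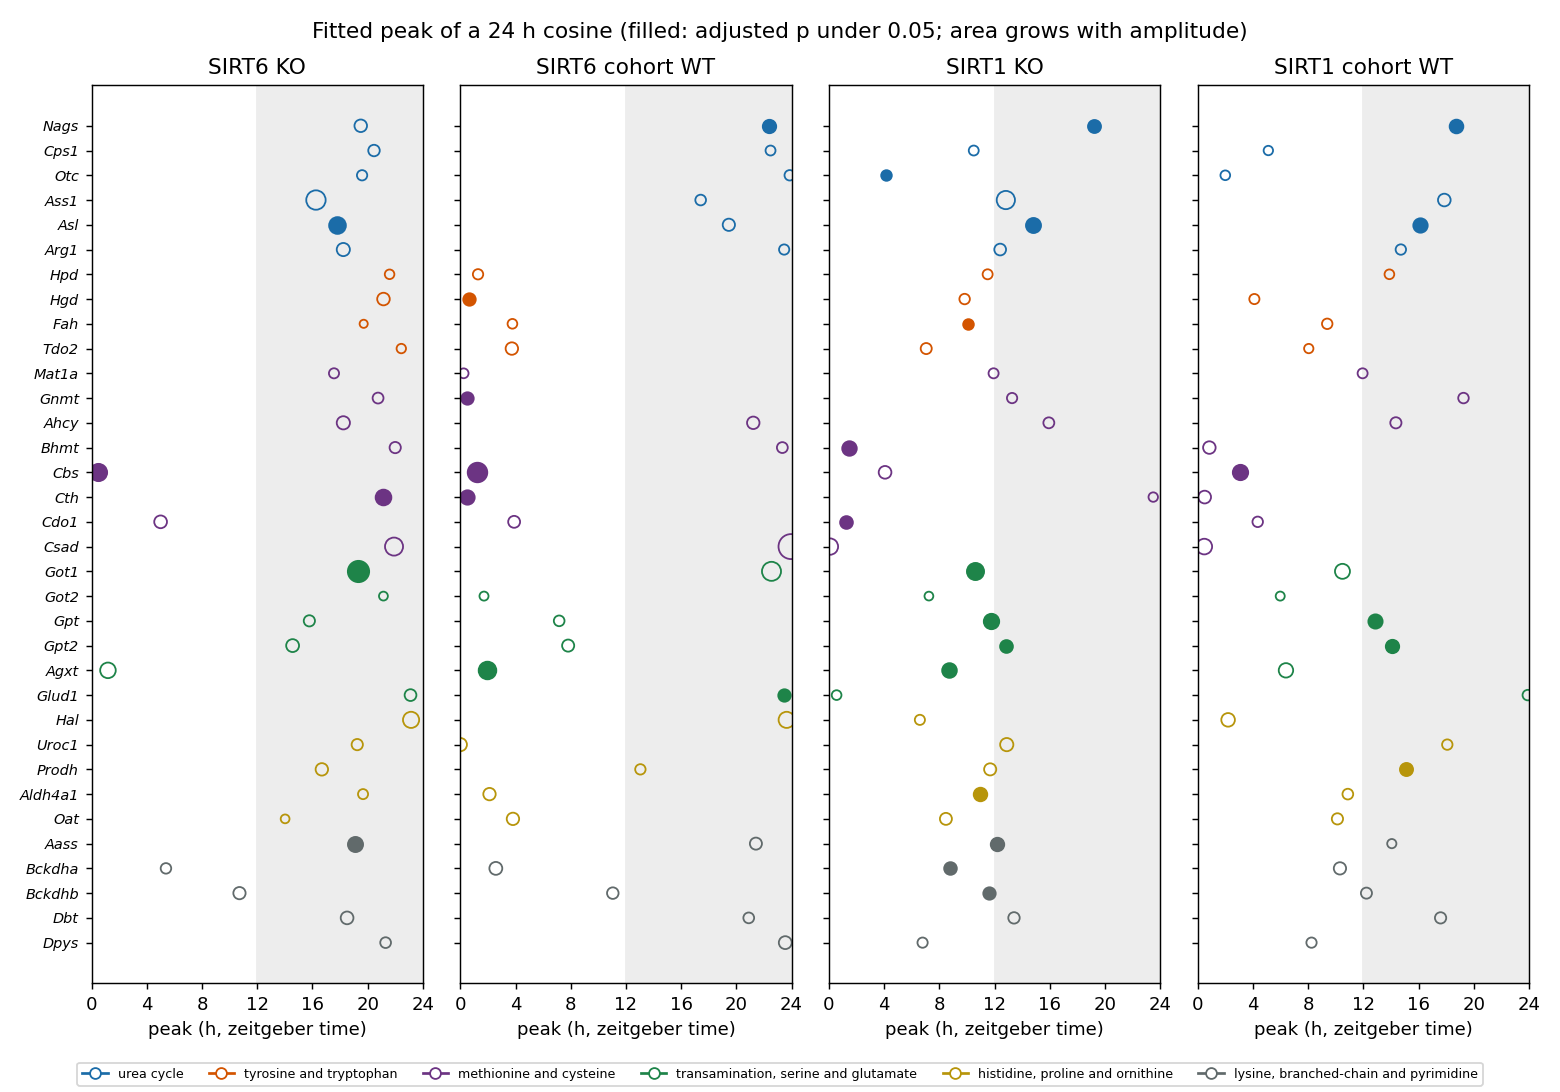
Fitted peak of a 24 h cosine for each gene (zeitgeber time in hours, horizontal axis) in SIRT6 KO, SIRT6-cohort WT, SIRT1 KO and SIRT1-cohort WT, with pathways in colour, filled points for an adjusted p under 0.05 and area growing with amplitude. Grey marks the dark phase. Got1 is filled at ZT19.3 in SIRT6 KO and at ZT10.6 in SIRT1 KO, and Asl is filled in 3 of the 4 sets.

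No gene of the set was rhythmic in all 4 sets. In 3 of them Nags, Asl and Cbs were rhythmic, in 2 sets 6 genes, in 1 set 11 and in none 14, among them Cps1, Arg1, Ass1, Tdo2 and Csad. This is by the cosine. By the F test over the 6 times Ass1 (adjusted p = 0.00334), Arg1 (0.00515), Uroc1, Oat and Dbt passed in SIRT1 KO. Hal passed it in SIRT1-cohort WT (0.0281). Nags, Asl, Cbs and Got1 are described by time although they fall outside the rule for values per sample, and were picked for this after their values were seen.

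Nags had the same low point in all 4 sets, ZT8. Its mean there was 9.63 ± 0.25 in SIRT6 KO and 9.72 ± 0.17 in its WT, and 9.83 ± 0.08 in SIRT1 KO and 9.88 ± 0.10 in its WT (SD, n = 3 each). The highest means were 10.07 at ZT20 in SIRT6 KO and 10.15 at ZT0 in its WT, and 10.36 at ZT0 in SIRT1 KO and 10.38 at ZT16 in its WT. The fitted peak was at ZT19.5 in SIRT6 KO (amplitude 0.31, adjusted p = 0.123) and at ZT22.4 in its WT (0.39, adjusted p = 0.0241). In SIRT1 KO it was at ZT19.2 (0.36, adjusted p = 0.0463) and in its WT at ZT18.7 (0.42, adjusted p = 0.00216). The fitted peaks lay in the dark phase, while the highest mean was at ZT0, lights on, in SIRT6-cohort WT and in SIRT1 KO. Without any 1 of 11 of the 18 arrays the SIRT1 KO rhythm did not pass.

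Asl peaked in the dark phase as well, at ZT17.8 in SIRT6 KO (amplitude 0.74 ± 0.12, adjusted p = 0.00149), at ZT14.8 in SIRT1 KO (0.55 ± 0.09, adjusted p = 0.000723) and at ZT16.1 in SIRT1-cohort WT (0.49 ± 0.13, adjusted p = 0.0340). In SIRT6-cohort WT its amplitude was 0.29 and did not pass (adjusted p = 0.239). In SIRT6 KO the level was 11.32, 11.42 and 11.35 at ZT0, 11.15, 11.34 and 11.31 at ZT4, and 11.26, 11.24 and 10.74 at ZT8. WT had 11.62, 11.82 and 11.58 at ZT0, 11.73, 11.42 and 11.38 at ZT4, and 11.34, 11.71 and 11.26 at ZT8. Over these 3 light-phase times all KO arrays lay below all WT arrays, narrowly so at ZT8. At ZT16 and ZT20 the KO means were 11.81 and 11.81, against 11.67 and 11.75 in WT. The difference in rhythm had an unadjusted p of 0.0251 and an adjusted p of 0.554.

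Cbs peaked near the start of the light phase, at ZT0.5 in SIRT6 KO (amplitude 0.80, adjusted p = 0.0257), ZT1.2 in SIRT6-cohort WT (1.08, adjusted p = 0.00164) and ZT3.0 in SIRT1-cohort WT (0.59, adjusted p = 0.0237). In SIRT1 KO the amplitude was 0.33 with a peak at ZT4.1 (adjusted p = 0.117). Its lowest mean was at ZT12 in SIRT6 KO (10.87 ± 0.44) and in SIRT6-cohort WT (10.81 ± 0.30). SIRT1 KO had 11.72 ± 0.29 at ZT12 and SIRT1-cohort WT 11.19 ± 0.07. All 3 SIRT1 KO arrays (11.38, 11.90 and 11.86) lay above all 3 WT arrays (11.13, 11.27 and 11.16) at that time.

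Cth, the next enzyme after Cbs, was rhythmic in SIRT6 KO (ZT21.1, amplitude 0.62, adjusted p = 0.0325) and in its WT (ZT0.5, 0.49, adjusted p = 0.0159), and in neither SIRT1-cohort set (0.08 in KO and 0.33 in WT). Gpt and Gpt2, the pair of alanine aminotransferases, were rhythmic in both SIRT1-cohort sets. Gpt peaked at ZT11.7 in SIRT1 KO and ZT12.9 in WT, and Gpt2 at ZT12.8 in SIRT1 KO and ZT14.1 in WT, near lights off. Neither was rhythmic in SIRT6 KO (fitted peaks ZT15.8 for Gpt and ZT14.6 for Gpt2) or its WT (ZT7.2 and ZT7.8). Agxt was rhythmic in SIRT6-cohort WT (ZT2.0, amplitude 0.84) and in SIRT1 KO (ZT8.7, 0.51). Aass was rhythmic in both KO sets, at ZT19.1 in SIRT6 KO (0.56, adjusted p = 0.0305) and ZT12.2 in SIRT1 KO (0.40, adjusted p = 0.0105).

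The genes rhythmic in 1 set were mostly of small amplitude. In SIRT1 KO they were Otc (0.16), Fah (0.17), Bhmt (0.50), Cdo1 (0.33, adjusted p = 0.000386), Aldh4a1 (0.41, adjusted p = 0.000921), Bckdha (0.33) and Bckdhb (0.30). In SIRT6-cohort WT they were Hgd (0.31), Gnmt (0.31) and Glud1 (0.31), which peaked between ZT23.4 and ZT0.6. These 3 rhythms did not pass without any 1 of 12, 11 and 15 of the 18 arrays, in that order, nor with no filter, no trend or the F test over the 6 times. In SIRT1 KO the rhythm of Otc did not pass without any 1 of 13 of the 18 arrays and that of Agxt without any 1 of 12. In SIRT1-cohort WT it was Prodh, with a peak at ZT15.1 and an amplitude of 0.36 (adjusted p = 0.0166). Csad had the largest fitted amplitude in SIRT6-cohort WT, 1.90, and did not pass (adjusted p = 0.0798), with replicates at ZT8 that had an SD of 1.56.

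**Figure D4:**
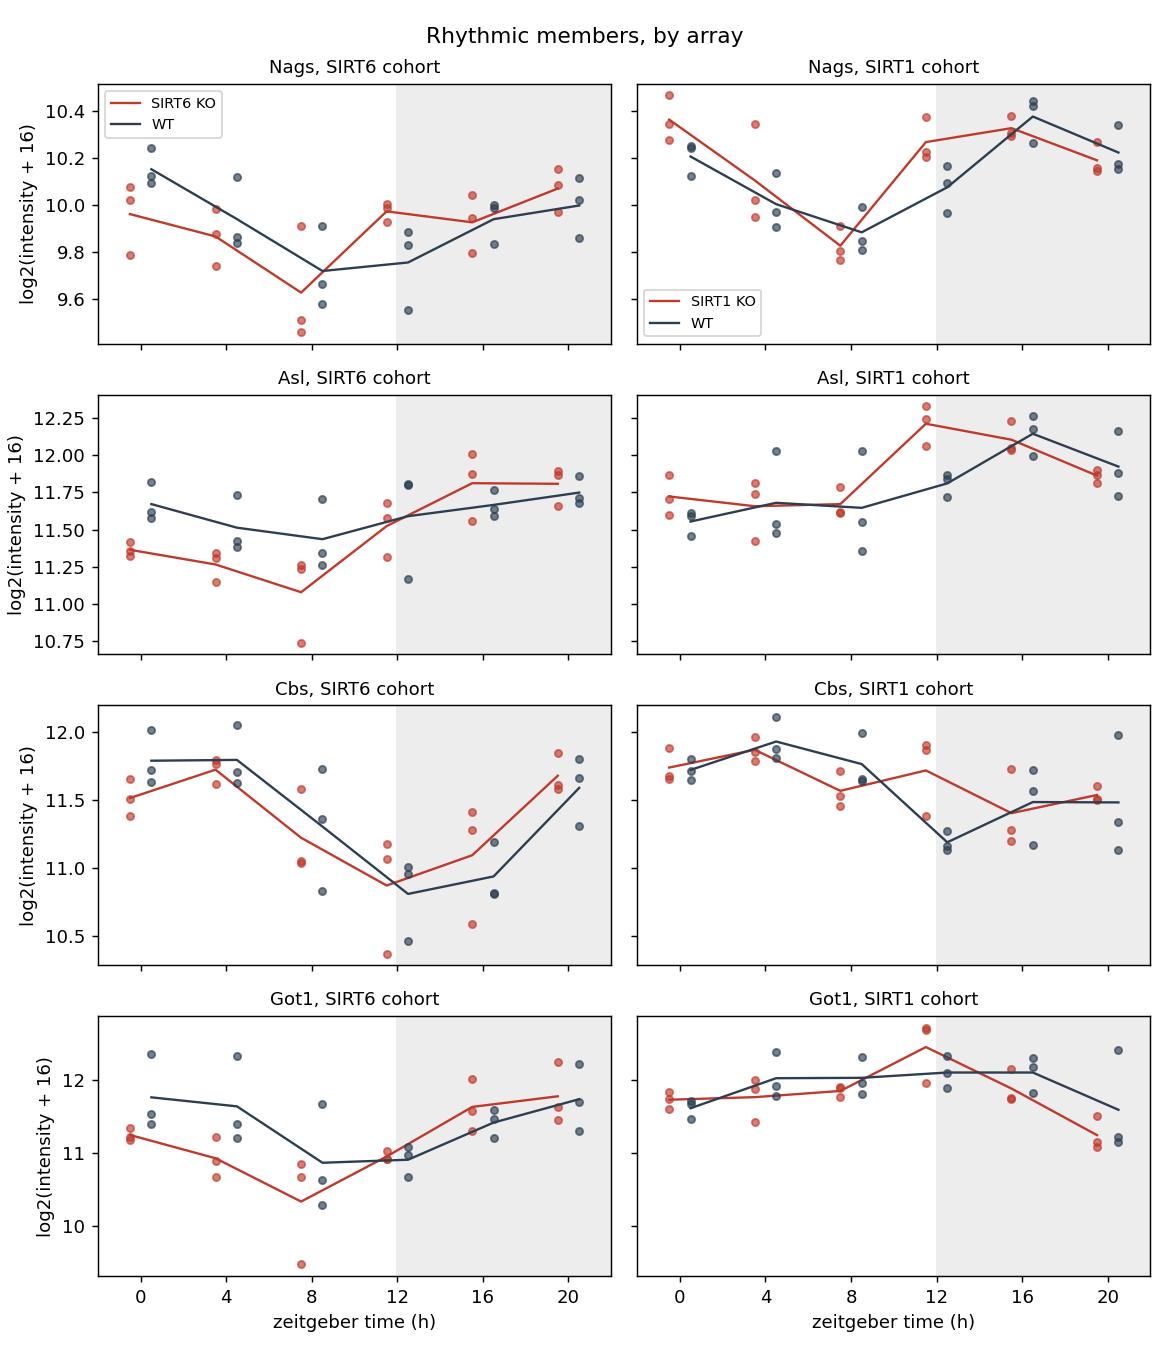
Level of Nags, Asl, Cbs and Got1 on each array, log2(intensity + 16), against zeitgeber time in hours, with KO in red, drawn left of WT in dark blue, in the SIRT6 cohort (left) and the SIRT1 cohort (right). Lines join group means of 3 arrays and grey marks the dark phase. Nags has its lowest mean at ZT8 in each of its 4 groups, and Got1 is lowest at ZT8 in SIRT6 KO but highest at ZT12 in SIRT1 KO.

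Got1 had its highest mean at different times in the 2 KO sets. In SIRT6 KO its level was 11.22, 11.18 and 11.35 at ZT0, 10.89, 11.22 and 10.67 at ZT4, and 10.85, 10.67 and 9.46 at ZT8. It was 10.91, 10.92 and 11.02 at ZT12, 11.30, 12.03 and 11.58 at ZT16, and 12.26, 11.63 and 11.46 at ZT20. The 6 arrays of ZT16 and ZT20 lay above all but 1 of the other 12. In SIRT1 KO it was 11.75, 11.61 and 11.85 at ZT0, 12.00, 11.88 and 11.43 at ZT4, and 11.77, 11.89 and 11.91 at ZT8. It was 11.96, 12.72 and 12.70 at ZT12, 11.75, 12.16 and 11.75 at ZT16, and 11.16, 11.08 and 11.50 at ZT20. SIRT1 KO was thus highest at ZT12 and lowest at ZT20, the time of the highest mean in SIRT6 KO.

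The cosine placed the Got1 peak at ZT19.3 in SIRT6 KO (amplitude 1.32 ± 0.24, adjusted p = 0.00378) and at ZT10.6 in SIRT1 KO (0.78 ± 0.19, adjusted p = 0.0166). A test of the difference in rhythm between the 2 KO sets, added after the data were seen, passed for 1 of the 34 genes, Got1 (adjusted p = 0.0134), where 0.586% of all genes passed. It held without each of the 36 arrays (adjusted p between 0.00571 and 0.0277). Aass (adjusted p = 0.0551) and Cps1 (adjusted p = 0.0700) came next and did not pass. Among WT sets 0 of the 34 genes passed, where 0.0827% of all genes did. At an unadjusted p under 0.05 it was 15 of the 34 among KO sets and 10 among WT sets, with no share over all genes computed at that cut. Got1 peaked at ZT22.5 in SIRT6-cohort WT and at ZT10.5 in SIRT1-cohort WT (adjusted p = 0.100), with amplitudes of 1.01 and 0.54 that did not pass on their own. The WT difference passed with array medians centred (adjusted p = 0.0364) and with array weights (adjusted p = 0.0358). Cohort, strain and targeted gene cannot be told apart in this contrast, and KO and WT of one cohort did not differ in rhythm detectably.

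The Cbs and Got1 promoters are shown because these 2 genes had among the largest daily amplitudes of the rhythmic members. Both lie on the - strand, Cbs at chr17:31637156-31637455 and Got1 at chr19:43524556-43524855 (RefSeq, GRCm38.p6), and capitals mark CACGTG, the E-box bound by CLOCK and ARNTL, at -229 in Cbs.
Cbs: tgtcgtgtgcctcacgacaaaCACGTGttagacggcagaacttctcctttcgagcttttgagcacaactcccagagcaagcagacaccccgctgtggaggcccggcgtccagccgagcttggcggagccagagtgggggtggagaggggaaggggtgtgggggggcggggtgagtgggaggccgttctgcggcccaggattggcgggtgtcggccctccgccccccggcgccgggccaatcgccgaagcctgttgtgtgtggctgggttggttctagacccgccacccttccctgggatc
Got1: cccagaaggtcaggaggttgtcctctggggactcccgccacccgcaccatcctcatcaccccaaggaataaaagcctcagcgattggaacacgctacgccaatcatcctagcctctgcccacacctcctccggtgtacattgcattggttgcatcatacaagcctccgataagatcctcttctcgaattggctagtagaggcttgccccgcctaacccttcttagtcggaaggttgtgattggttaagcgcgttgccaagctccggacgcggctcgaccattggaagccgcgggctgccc
The E-box was held by 7.15% of the 32851 promoters and by 2 of the 27 promoters of the set, those of Ass1 and Cbs. TAGGTCA, the core of the ROR element, was held by 2.61% of all promoters and by 3 of the 27, those of Aass, Bhmt and Tdo2. TTANGTAA, the D-box, and TGACGTCA, the cAMP response element, were held by 2.32% and 1.79% of all promoters and by 0 of the 27. No match was found in the Got1 window. Both strands were searched, and no match within the set overlapped another.

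Further genes of the same pathways were read from a list of 62 genes, of which 55 were tested. In SIRT6 KO 3 were higher and 1 lower, with 13 of 55 at an unadjusted p under 0.05. Over all genes tested, 3.39% were higher, 3.22% lower and 19.3% below the unadjusted cut. Ivd, isovaleryl-CoA dehydrogenase of leucine breakdown, averaged 10.23 ± 0.15 in KO and 10.05 ± 0.14 in WT (difference 0.18, adjusted p = 0.0133). Ado, which oxidises cysteamine, differed by 0.14 (adjusted p = 0.0365), Ddo, D-aspartate oxidase, by 0.25 (adjusted p = 0.0424) and Agmat, agmatinase, by -0.19 (adjusted p = 0.0491). In SIRT1 KO Pccb, a subunit of propionyl-CoA carboxylase, was higher by 0.16 (adjusted p = 0.0125) and 0 were lower, with 8 of 55 at an unadjusted p under 0.05. The Ivd effect differed between the cohorts (0.18 in SIRT6 KO and -0.09 in SIRT1 KO, adjusted p of the difference 0.00992). Of 14 tested regulators of amino acid breakdown, such as nuclear receptors and C/EBP factors, 0 passed in either cohort, and 2 (SIRT6 cohort) and 1 (SIRT1 cohort) had an unadjusted p under 0.05.

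Markers of other cell types were compared in the same way. All 10 Kupffer cell markers were above the filter and had the higher mean in SIRT6 KO (median difference 0.19, summed intensity 2776 to 16752 in KO and 2154 to 13694 in WT), and 0 of 10 did in SIRT1 KO (median -0.12, 1477 to 5424 in KO and 2251 to 5969 in WT). None passed the threshold, with 0 and 1 of 10 at an unadjusted p under 0.05. Hepatocyte markers had the higher mean in KO for 4 of 10 in both cohorts, with a summed intensity of 55687 to 64711 in SIRT6 KO and 57035 to 66001 in its WT, and Serpina1a was lower in SIRT1 KO (-0.12, adjusted p = 0.0454). Among acute phase genes 14 of 19 had the higher mean in SIRT6 KO and 6 of 19 in SIRT1 KO. Orm3 was higher in SIRT6 KO (1.53, adjusted p = 0.00557) and Apcs lower in SIRT1 KO (-0.41, adjusted p = 0.00963), and both effects differed between the cohorts (adjusted p = 0.00789 and 0.00081). Of 5 lymphocyte, 10 stellate, 10 endothelial, 3 bile duct and 1 acinar marker tested, 0 passed in either cohort, with 0 at an unadjusted p under 0.05 except 1 bile duct marker in SIRT1 KO. Stellate markers had the higher mean in KO for 8 of 10 in both cohorts, and endothelial markers for 3 of 10 (SIRT6) and 1 of 10 (SIRT1). Periportal genes had it for 5 of 8 (SIRT6) and 1 of 8 (SIRT1), and perivenous genes for 7 of 10 and 8 of 10. None of these genes passed. At an unadjusted p under 0.05 were 2 periportal and 0 perivenous genes (SIRT6), and 3 and 1 (SIRT1). The part of these cells and genes in the lower means of the urea cycle, tyrosine and sulfur genes was not tested.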

How the data were processed

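Liver RNA of 72 mouse samples was hybridised to Affymetrix arrays, 1 per sample, in 24 groups of 3 taken from the sample titles. The values in the deposited table are linear intensity per probe set, made by the authors with Affymetrix Expression Console 1.1.1 and PLIER 2.0 per the submitters' processing notes. The sources used here state no normalization settings, probe positions or genome build. Of 41345 probe sets, 23521 carried 1 symbol, 1814 several and 16010 none. Each gene was read from its brightest probe set with that symbol alone, so a shared or pseudogene signal cannot be told apart.

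Values were taken as log2(intensity + 16), which understates changes of dim genes, and the lowest 40% of 22180 genes (mean under 6.00) were left out. All 13308 genes were fitted with limma 3.58.1 in R 4.3.3, with a trend and Benjamini-Hochberg correction over all of them at 0.05. Each cohort was fitted as 12 group means over 36 arrays, for KO minus WT averaged and at each time (1 correction over genes and times). Rhythms were a moderated F of a 24 h cosine over 18 arrays, and differences in rhythm genotype by cosine terms over 36. The difference between effects used all 72 arrays. Cohort by cosine terms within KO and within WT arrays, and the upper quartile of each array as a covariate, were added after seeing the data. The steps were tested on simulated data. Alternatives were quantile normalization, centred array medians, pseudocounts of 1 and 64, no filter, array weights, no trend, a block for the replicate number, an F test over the 6 times, and each array left out.

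The genes of the set and all lists were chosen with earlier results of these data known. Named were all 37 members. Of other listed genes those past the threshold in an averaged, rhythm-difference or effect-difference test were named, with up to 6 other pathway genes that were rhythmic in all 4 sets, taken by median amplitude, and clock genes as a check of time labels. Same-numbered KO and WT arrays deviated together (correlation over 0.1) in 11 of 18 pairs in the SIRT6 cohort and 6 of 18 in the SIRT1 cohort. The correlation had a median of 0.25 (-0.36 to 0.74) in the SIRT6 cohort and 0.03 (-0.28 to 0.37) in the SIRT1 cohort. The labels do not say whether the numbers pair samples, and a shared part in the SIRT6 cohort was not tested.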

Additional observations from a re-analysis of the deposited data

Results flagged for a closer look

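The daily rhythm of Got1, cytosolic aspartate aminotransferase, differed between the arrays labelled SIRT6 KO and SIRT1 KO by a test of cohort by cosine terms (limma adjusted p = 0.0134 over all genes), with fitted peaks at ZT19.3 in SIRT6 KO and ZT10.6 in SIRT1 KO and amplitudes of 1.32 and 0.78. The difference was flagged because it was tested directly between the groups, by a test added after the data were seen. The WT sets had fitted Got1 peaks at ZT22.5 in the SIRT6 cohort and ZT10.5 in the SIRT1 cohort, and the same test did not pass there (adjusted p = 0.100). The difference between the KO sets held in the alternative settings run, with an adjusted p between 0.00732 and 0.0212. That between the WT sets passed with array medians centred (adjusted p = 0.0364) and with array weights (adjusted p = 0.0358), and not in the others. Strain, cohort and targeted gene cannot be told apart here.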

How the results depend on the processing

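The differences of Hgd and Cdo1 (SIRT6 cohort) and Prodh (SIRT1 cohort) kept their sign in the alternatives run. The members' median difference in the SIRT1 cohort did change sign, -0.01 as reported and 0.05 with array medians centred, with 21 and 8 of 34 genes at the lower mean in KO. The number of genes called in the SIRT6 averaged comparison (2) was 7 with array weights, 1 with no filter, 1 with the replicate block and 4 with the upper quartile as covariate, and 1 to 3 with 1 array left out. In the SIRT1 averaged comparison (1) it was 2 with centred medians, 3 with array weights, 3 with the upper quartile, and 0 with quantile normalization, no filter, no trend and the replicate block, and 0 to 3 with 1 array left out. At single times (0) array weights gave 4 genes (SIRT6 cohort) and 1 (SIRT1 cohort). Rhythmic genes in SIRT6 KO (5) were 1 by the F test over the 6 times, 8 with the upper quartile, and 3 to 7 with 1 array left out. In SIRT6-cohort WT (7) they were 1 by the F test, 4 with no filter, 4 with no trend, 12 with array weights, 11 with the upper quartile, and 2 (without replicate 1 of ZT12) to 8 with 1 array left out. With 1 array left out they were 10 to 15 in SIRT1 KO (14) and 4 to 9 in SIRT1-cohort WT (6). The difference between effects (0) gave 5 with centred medians, 4 with array weights, 1 with quantile normalization, 2 with the upper quartile, and 0 to 1 with 1 array left out. The rhythm of the cohorts gave 3 genes among KO arrays with array weights (1 as reported, 1 to 3 with 1 array left out), and 1 with centred medians and 2 with array weights among WT arrays (0). The array weights were estimated by fits that stopped before reaching their convergence tolerance. The members with the lower mean in KO were 18 to 26 in both cohorts with 1 array left out. Whether replicate numbers pair the samples is not known, and with the replicate block the calls of Cdo1 and Prodh were lost. The cause of these shifts was not tested. Intensity has no depth, and 3 arrays a group limit what single times can show.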

Other observations

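Of the other pathway genes, 3 were rhythmic in all 4 sets. Amt and Gldc, subunits of the glycine cleavage system, and Kynu, kynureninase of tryptophan breakdown, peaked around lights on. Amt peaked at ZT1.4 in SIRT6 KO and ZT0.8 in its WT, and at ZT3.2 in SIRT1 KO and ZT3.1 in its WT, with amplitudes of 1.17 and 1.16 in SIRT6 KO and its WT and 0.91 and 0.80 in SIRT1 KO and its WT. Gldc peaked at ZT22.2 in SIRT6 KO, ZT22.9 in its WT, ZT21.9 in SIRT1 KO and ZT23.4 in its WT, with amplitudes of 1.09, 1.29, 0.55 and 0.80. Kynu peaked at ZT22.3, ZT23.6, ZT1.3 and ZT1.1 in the same order of sets. Of the 55 genes tested, 7 (12.7%) were rhythmic in SIRT6 KO, 12 (21.8%) in its WT, 21 (38.2%) in SIRT1 KO and 13 (23.6%) in its WT. Of 14 regulators, 4, 4, 9 and 9 were (28.6%, 28.6%, 64.3% and 64.3%). The shares over all genes tested were 10.6%, 10.1%, 23.2% and 18.3% in the same order of sets.

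A second probe set existed for 3 members, Ahcy among them. That of Nags differed by -0.06 (SIRT6) and 0.06 (SIRT1), where the one used gave -0.01 and 0.05. That of Got2 differed by 0.05 and 0.03, where the one used gave 0.05 and -0.02, so the sign differed in the SIRT1 cohort, as it did for Ahcy (0.03 against -0.07).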
